A study of Mus musculus with 6 samples.

Results

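The genes described here control passage through the G1 phase of the cell cycle. They are the D cyclins *Ccnd1*, *Ccnd2* and *Ccnd3*, the kinases *Cdk4* and *Cdk6*, and the CDK inhibitors *Cdkn1a*, *Cdkn1b*, *Cdkn2a*, *Cdkn2c* and *Cdkn2d*. They were chosen by name, as the genes of the expression table whose symbol was one of these, with earlier results of these data known. The table lists 41128 genes, of which these are 10. All 10 were among the 9522 protein-coding genes that were tested.

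D cyclins are made in response to growth factors and bind CDK4 or CDK6, and the active kinases phosphorylate RB and its relatives, which releases E2F factors to switch on genes for DNA replication. Inhibitors of the INK4 family bind CDK4 and CDK6 directly, whereas those of the CIP/KIP family bind assembled complexes of cyclin and kinase. In the bone marrow this circuit couples cytokine signals to the division of progenitor cells, which slows as myeloid cells mature.

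RNA was sequenced from acute myeloid leukemias (AML) in the bone marrow (BM) of 6 C57BL/6 mice, with 1 library per mouse. KIT+ BM cells of young adult female CD45.1+ donors were transduced with a retrovirus for *Hoxa9* together with either the empty vector MTV (mice 1.1, 1.2 and 1.4) or the same vector with a human *IRX3* cDNA (mice 3.2, 3.3 and 3.5), selected with drugs and transplanted into irradiated CD45.2+ congenic recipients. Once the recipients were ill, BM was frozen, and viable donor CD45.1+ cells positive for KIT and Gr1 were sorted by flow cytometry after thawing. The study reports a later onset of AML in *Hoxa9*/*IRX3* than in *Hoxa9*/MTV recipients. Time since transplantation may thus differ between the cohorts, and its part was not tested. The comparison of *Hoxa9*/*IRX3* with *Hoxa9*/MTV asks what *IRX3* adds to a leukemia started by *Hoxa9*, in a model that rests on retroviral overexpression and transplantation. Each mouse counts as 1 replicate, and the numbers of the mice do not pair the cohorts.

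Expression is given as deposited, in RPKM, which divide the reads of a gene by its length and by the depth of the library, with a length that includes introns. Steps between low values gave the number of reads by which the RPKM of each library were divided, which was 8843083, 8305937 and 9672522 for mice 1.1, 1.2 and 1.4 and 8860734, 9803621 and 7979246 for mice 3.2, 3.3 and 3.5. Levels of the members are compared with each other only after division by exon length, while genes of the other lists are ranked by deposited RPKM unless exon length is named. Differences between cohorts are expressed as *Hoxa9*/*IRX3* relative to *Hoxa9*/MTV. They were computed on log2(RPKM + 0.5), which makes the change of a low gene look smaller than it was. limma gave their tests, and p-values were adjusted over all tested genes after Benjamini and Hochberg. Of the introduced genes, *Hoxa9* was at 340, 363 and 174 RPKM in mice 1.1, 1.2 and 1.4 and at 242, 154 and 221 RPKM in mice 3.2, 3.3 and 3.5. *Irx3* had 0 reads in each *Hoxa9*/MTV mouse and 454, 14 and 4 reads in mice 3.2, 3.3 and 3.5, and whether these came from the human cDNA or from the mouse gene was not tested. Reads were aligned to the mouse genome, so that these counts may not measure the level of the human cDNA. The study reports strong *IRX3* expression in BM cells of *Hoxa9*/*IRX3* leukemias. Of the markers of the sort, *Kit* ranged from 1.63 to 3.12 RPKM over the 6 mice. *Ly6g* and *Ly6c2*, whose products carry the Gr1 epitopes, ranged from 0.0532 to 1.42 RPKM and from 413 to 844 RPKM. In such bulk samples, fewer cells of a type and less RNA per cell cannot be told apart.

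Of the 10 genes, 1 fell and 0 rose at an adjusted p under 0.05. Over all 9522 tested genes 510 were called (5.36%), 175 of them higher (1.84%) and 335 lower (3.52%) in *Hoxa9*/*IRX3* leukemias. The gene that fell was *Ccnd1*, and it was also the only member with an unadjusted p under 0.05 by limma. limma voom on the recovered reads and the study's own criterion also called 0 members higher and 1 lower. The cohorts did not overlap for 1 member, against 33.7% of all tested genes. The other 9 had adjusted p-values from 0.410 to 0.983. Estimates were higher in *Hoxa9*/*IRX3* for 4 members and lower for 6, with a median log2 fold change of -0.12 against -0.06 over all tested genes. The filter of 0.5 RPKM in at least 1 mouse was met in all 6 mice by 7 members. *Ccnd1* met it in the 3 *Hoxa9*/MTV mice and 0 of the *Hoxa9*/*IRX3* mice, *Ccnd2* in all mice except 3.3, and *Cdkn2a* in mouse 3.3 alone.

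**Figure D1:**
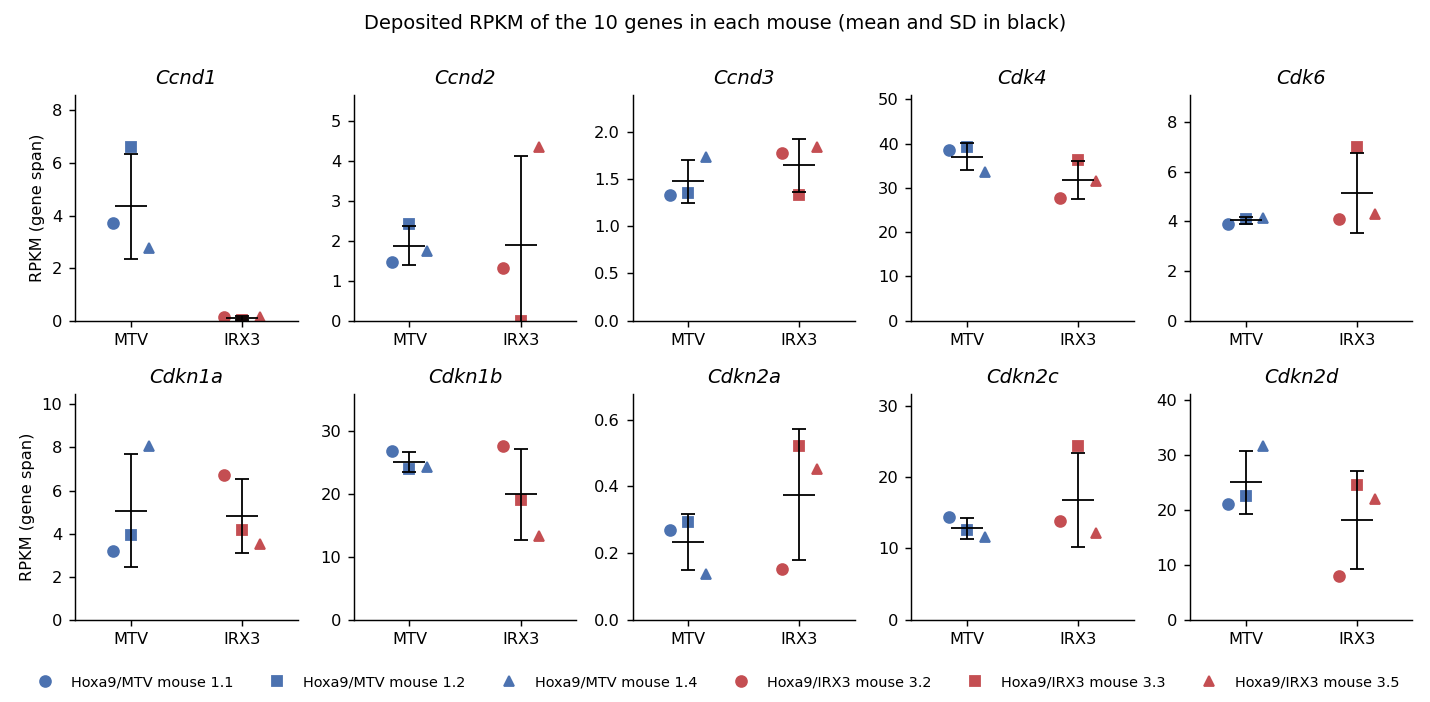
Deposited RPKM of each member in each mouse (blue for *Hoxa9*/MTV, red for *Hoxa9*/*IRX3*, a symbol per mouse), with the cohort mean and SD in black (n = 3 mice each), on an axis of its own per gene. The lower end of the SD bar of *Ccnd2* in *Hoxa9*/*IRX3* is cut at 0, and *Ccnd1* is the only member whose cohorts do not overlap.

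*Ccnd1* (ENSMUSG00000070348; chromosome 7, 144929931 to 144939925, minus strand, GRCm38) encodes cyclin D1, a regulatory subunit of CDK4 and CDK6. It was at 3.71, 6.60 and 2.76 RPKM in *Hoxa9*/MTV mice 1.1, 1.2 and 1.4, from 326, 545 and 265 reads. In *Hoxa9*/*IRX3* mice 3.2, 3.3 and 3.5 it was at 0.159, 0.0308 and 0.151 RPKM, from 14, 3 and 12 reads. The lowest *Hoxa9*/MTV mouse thus lay far above the highest *Hoxa9*/*IRX3* mouse, and within the *Hoxa9*/*IRX3* cohort mouse 3.3 was lower than the others. The 3 reads of mouse 3.3 have an exact 95% Poisson interval of 0.619 to 8.77 reads, and intervals of this kind cover counting error only. The mean fell from 4.36 ± 2.00 RPKM to 0.114 ± 0.0719 RPKM (SD, n = 3 mice each). The ratio of these means was 38.3-fold, and between 28.1-fold (without mouse 3.3) and 47.8-fold (without mouse 3.2) when 1 mouse was left out. On log2(RPKM + 0.5) the change was -2.91 (SE 0.28, 95% interval -3.59 to -2.23, limma adjusted p = 0.00553), which is 7.53-fold on that scale. The same gene changed by -5.41 on the log2 scale of reads in limma voom. Among all tested genes 14 had a larger fall.

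The fall of *Ccnd1* passed the test with each of the 6 mice left out in turn, with log2 fold changes from -3.16 to -2.60 and limma adjusted p-values from 0.0150 to 0.0385. The last 1771 bases of the gene overlap *Oraov1* on the opposite strand. The libraries were made with a strand-specific kit, but whether the counting used strand is not given in the sources used here. *Oraov1* ranged from 1.07 to 1.73 RPKM over the 6 mice.

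*Ccnd2* (ENSMUSG00000000184; chromosome 6, 127125162 to 127152193, minus strand), which encodes cyclin D2, known for its role in B lymphocytes and the ovary, varied within the *Hoxa9*/*IRX3* cohort. It was at 1.46, 2.42 and 1.76 RPKM in mice 1.1, 1.2 and 1.4, and at 1.33, 0 and 4.34 RPKM in mice 3.2, 3.3 and 3.5. Mouse 3.5 was the highest of all 6 mice and mouse 3.3 the lowest, so that the *Hoxa9*/MTV mice lay between them. Mouse 3.5 had 876 reads, and mouse 3.3 had 0, which allows up to 3 reads or 0.0113 RPKM. The cohort means were 1.88 ± 0.492 and 1.89 ± 2.23 RPKM (SD, n = 3 mice each). The log2 fold change was -0.51 (SE 0.76, 95% interval -2.32 to 1.29, limma adjusted p = 0.708) and turned to 0.34 without mouse 3.3. It was -0.90 with exon length, -1.17 with a pseudocount of 0.1 and -3.38 by limma voom (adjusted p = 0.361).

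*Ccnd3* (ENSMUSG00000034165; chromosome 17, 47505051 to 47599691, plus strand), encodes cyclin D3, known for its role in the expansion of lymphoid precursors. It was at 1.33, 1.35 and 1.73 RPKM in mice 1.1, 1.2 and 1.4. In mice 3.2, 3.3 and 3.5 it was at 1.78, 1.32 and 1.84 RPKM. The cohorts overlapped, and the log2 fold change was 0.12 (SE 0.15, 95% interval -0.23 to 0.47, limma adjusted p = 0.647). It shares 361 bases with *Bysl* on the opposite strand, which was at 3.03 to 4.91 RPKM over the 6 mice. Per exon length its mean was 15.9 ± 2.45 RPKM for *Hoxa9*/MTV against 17.7 ± 3.01 RPKM for *Hoxa9*/*IRX3*. On that scale *Ccnd1* was at 9.19 ± 4.23 and 0.240 ± 0.152 RPKM (SD, n = 3 mice each).

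Summed per exon length, the D cyclins amounted to 26.1, 35.0 and 29.2 RPKM in mice 1.1, 1.2 and 1.4 and to 23.1, 14.4 and 31.8 RPKM in mice 3.2, 3.3 and 3.5 (exact permutation test, two-sided p = 0.3). *Ccnd1* held 30.0%, 39.8% and 19.9% of this sum in mice 1.1, 1.2 and 1.4, and 1.46%, 0.453% and 1.01% in mice 3.2, 3.3 and 3.5. Its share was thus higher in every *Hoxa9*/MTV mouse than in any *Hoxa9*/*IRX3* mouse, with a mean difference of -28.9 percentage points per exon length (-51.8 percentage points on the gene span). The exact permutation test gave p = 0.1, the smallest that 3 mice against 3 allow, and 0.45 after adjustment over the 9 shares tested. The share of *Ccnd3* ran from 41.6% to 64.0% in *Hoxa9*/MTV mice and was 83.1%, 99.5% and 62.3% in mice 3.2, 3.3 and 3.5. These ranges overlapped (difference 28.1 points, exact p = 0.2). *Ccnd2* held 15.0% to 18.6% in *Hoxa9*/MTV mice and from 0% in mouse 3.3 to 36.7% in mouse 3.5. Per exon length, *Ccnd3* had the highest level of the D cyclins in each of the 6 mice, narrowly so in mouse 1.2 (41.6% against 39.8% for *Ccnd1*).

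**Figure D2:**
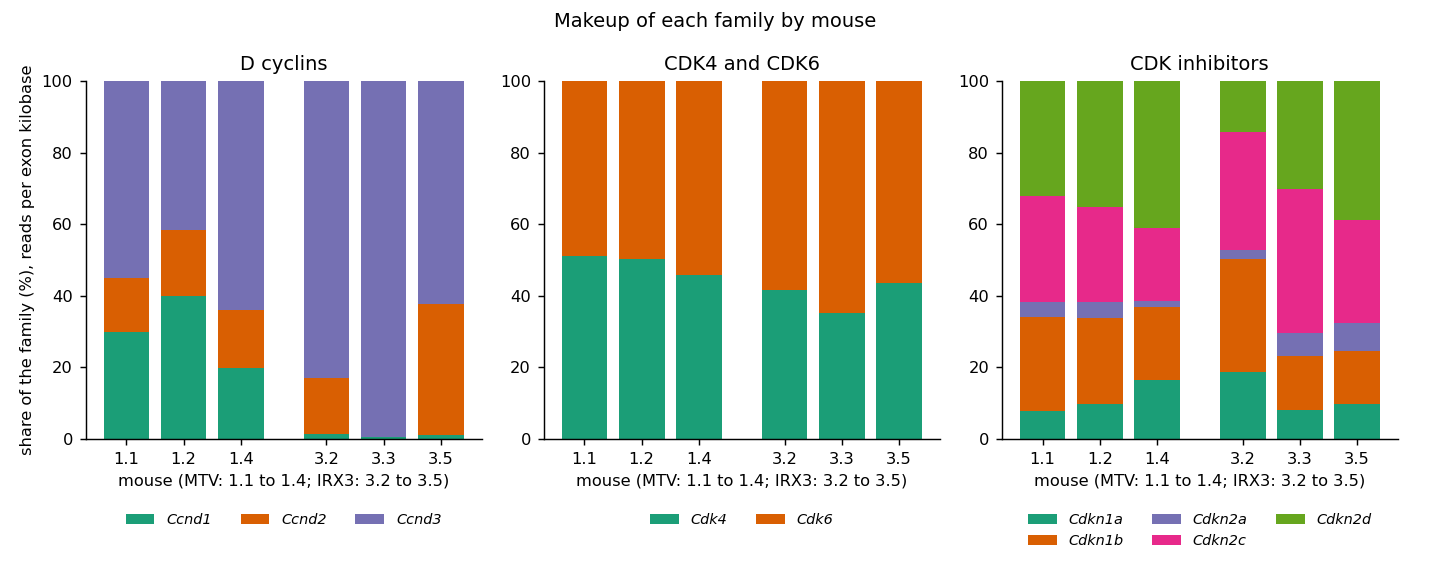
Share of each gene (colors) in the sum of its family in each mouse (bars), in percent, for the D cyclins, CDK4 and CDK6, and the CDK inhibitors, computed from RPKM per exon length. *Ccnd1* holds 19.9% to 39.8% of D cyclin RNA in *Hoxa9*/MTV mice and 0.453% to 1.46% in *Hoxa9*/*IRX3* mice.

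*Cdk4* (ENSMUSG00000006728; chromosome 10, 127063534 to 127067920, plus strand), the catalytic partner of the D cyclins, was at 38.6, 39.2 and 33.5 RPKM in mice 1.1, 1.2 and 1.4 and at 27.7, 36.2 and 31.7 RPKM in mice 3.2, 3.3 and 3.5. Mouse 3.2 was the lowest, and mouse 3.3 lay among the *Hoxa9*/MTV mice, so that the cohorts overlapped. The means were 37.1 ± 3.14 and 31.9 ± 4.26 RPKM (SD, n = 3 mice each), with a log2 fold change of -0.22 (SE 0.16, 95% interval -0.59 to 0.15, limma adjusted p = 0.419). The gene shares 641 bases with *Tspan31* on the opposite strand, which was at 12.4 RPKM in mouse 3.2 and at 23.8 to 33.2 RPKM in the other 5 mice.

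*Cdk6* (ENSMUSG00000040274; chromosome 5, 3341485 to 3531008, plus strand), the related kinase that is prominent in hematopoietic progenitors, was at 3.88, 4.09 and 4.16 RPKM in mice 1.1, 1.2 and 1.4. It was at 4.10, 6.999 and 4.32 RPKM in mice 3.2, 3.3 and 3.5. Mouse 3.3 stood above all other mice, mouse 3.5 lay just above and mouse 3.2 within the *Hoxa9*/MTV range. The log2 fold change was 0.27 (SE 0.20, 95% interval -0.21 to 0.76, limma adjusted p = 0.438), and 0.05 without mouse 3.3. Per exon length *Cdk6* was at 51.9 ± 1.85 RPKM and *Cdk4* at 50.1 ± 4.23 RPKM in *Hoxa9*/MTV cells. The values for *Hoxa9*/*IRX3* were 65.9 ± 20.7 and 43.0 ± 5.76 RPKM (SD, n = 3 mice each). *Cdk6* thus made up 48.9%, 49.8% and 54.1% of the RNA of the pair in mice 1.1, 1.2 and 1.4 and 58.4%, 64.7% and 56.4% in mice 3.2, 3.3 and 3.5. The lowest share among *Hoxa9*/*IRX3* mice was above the highest among *Hoxa9*/MTV mice, and the means differed by 8.93 points (exact permutation p = 0.1, adjusted 0.45 over 9 shares). On the gene span the share of *Cdk6* and this difference were both smaller, with the same direction. The sum of both kinases per exon length was 98.5 to 105 RPKM in *Hoxa9*/MTV mice and 90.0, 139 and 98.1 RPKM in mice 3.2, 3.3 and 3.5 (exact permutation p = 1).

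RefSeq promoter windows (GRCm38.p6, 250 bases before to 50 after a transcription start) were found for 8 of the 10 genes, 12 windows in all. *Ccnd1* and *Ccnd2* had no entry. Both strands of each window were searched for the E box CACGTG, which reads the same on both strands and which MYC and related factors can bind, and for the E2F letters TTTCCCGC, TTTGGCGC and TTTCGCGC. CACGTG was present in 3 of the 12 windows, with 4 matches in *Cdk4* and 1 each in *Cdk6* and *Cdkn2c*. Of all 32851 mouse windows 7.15% hold it at least once, and 8 windows (0.0244%) hold it at least 4 times. No window of these genes held matches to both motifs. The *Cdk4* sequence is shown because of this repetition. It comes from the plus strand, chr10:127063355-127063534, and ends at the start site, with CACGTG in capitals at 172, 118, 98 and 11 bases before the start.
*Cdk4*: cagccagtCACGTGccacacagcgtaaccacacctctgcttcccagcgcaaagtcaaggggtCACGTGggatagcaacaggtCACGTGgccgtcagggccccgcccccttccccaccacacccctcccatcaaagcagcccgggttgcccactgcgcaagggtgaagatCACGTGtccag
The match is a description of the sequence, and binding was not measured.

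*Cdkn1a* (ENSMUSG00000023067; chromosome 17, 29090976 to 29100727, plus strand) encodes p21, the CIP/KIP inhibitor that p53 induces. It was at 3.20, 3.94 and 8.05 RPKM in mice 1.1, 1.2 and 1.4 and at 6.74, 4.18 and 3.51 RPKM in mice 3.2, 3.3 and 3.5. Mouse 1.4 was the highest and mouse 1.1 the lowest, and the *Hoxa9*/*IRX3* mice lay between them. Its log2 fold change was -0.02 (SE 0.36, 95% interval -0.88 to 0.85, limma adjusted p = 0.983). Its sign turned under median-of-ratios scaling (0.063) and quantile normalization (0.093).

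*Cdkn1b* (ENSMUSG00000003031; chromosome 6, 134920401 to 134925513, plus strand) encodes p27, which holds quiescent cells in G1 and is removed by ubiquitin-dependent degradation. Its level was 26.8, 23.9 and 24.1 RPKM in mice 1.1, 1.2 and 1.4 and 27.5, 18.99 and 13.2 RPKM in mice 3.2, 3.3 and 3.5. Mouse 3.5 was the lowest of the 6 and mouse 3.2 the highest, so that the cohorts overlapped. The means were 24.9 ± 1.58 and 19.9 ± 7.19 RPKM (SD, n = 3 mice each), with a log2 fold change of -0.38 (SE 0.26, 95% interval -1.004 to 0.25, limma adjusted p = 0.410). That change was -0.12 without mouse 3.5 and -0.64 without mouse 3.2.

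*Cdkn2a* (ENSMUSG00000044303; chromosome 4, 89274471 to 89294653, minus strand) encodes the INK4 inhibitor p16Ink4a and, from an upstream start and another reading frame, p19Arf, which stabilizes p53. Per exon length it had the lowest mean of the members in *Hoxa9*/MTV cells, within the spread of that of *Ccnd2*. Its RPKM was 0.269, 0.292 and 0.138 in mice 1.1, 1.2 and 1.4, from 48, 49 and 27 reads. In mice 3.2, 3.3 and 3.5 it was 0.151, 0.521 and 0.453, from 27, 103 and 73 reads. Mice 3.3 and 3.5 were above the *Hoxa9*/MTV mice and mouse 3.2 was among them. The difference on log2(RPKM + 0.5) was 0.23 (SE 0.22, 95% interval -0.28 to 0.75, limma adjusted p = 0.536). It was 0.52 with exon length, 0.60 by limma voom, 0.11 without mouse 3.3 and 0.43 without mouse 3.2.

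The table gives a value for the whole gene, so that transcripts of p16Ink4a and p19Arf are counted together. Their promoters are shown because they differ in the E2F letters. These were present in 1 of the 12 windows, that of the p19Arf start, and 1.84% of all 32851 windows hold them. The sequences come from RefSeq (GRCm38.p6, minus strand) and end at the start site. That of p19Arf is chr4:89294620-89294739, with TTTCCCGC in capitals at 99 bases before the start, and that of p16Ink4a is chr4:89282193-89282312, with no match.
p19Arf start: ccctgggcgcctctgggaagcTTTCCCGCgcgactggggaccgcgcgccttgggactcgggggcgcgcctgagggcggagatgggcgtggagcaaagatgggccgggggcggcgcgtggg
p16Ink4a start: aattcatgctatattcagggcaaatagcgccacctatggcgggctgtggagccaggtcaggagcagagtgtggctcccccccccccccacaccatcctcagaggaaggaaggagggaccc

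*Cdkn2c* (ENSMUSG00000028551; chromosome 4, 109660876 to 109667189, minus strand) encodes p18, an INK4 inhibitor that limits the expansion of hematopoietic stem cells. It was at 14.4, 12.5 and 11.5 RPKM in mice 1.1, 1.2 and 1.4 and at 13.8, 24.3 and 12.1 RPKM in mice 3.2, 3.3 and 3.5. Mouse 3.3 was the highest, and both other *Hoxa9*/*IRX3* mice lay among the *Hoxa9*/MTV mice. Its log2 fold change was 0.31 (SE 0.27, 95% interval -0.33 to 0.95, limma adjusted p = 0.505), and 0.02 without mouse 3.3. *Cdkn2d* (ENSMUSG00000096472; chromosome 9, 21288410 to 21291407, minus strand) encodes p19Ink4d, another INK4 inhibitor. Its RPKM was 21.1, 22.5 and 31.6 in mice 1.1, 1.2 and 1.4 and 7.97, 24.5 and 22.1 in mice 3.2, 3.3 and 3.5. Mouse 3.2 alone lay below the *Hoxa9*/MTV mice. The log2 fold change was -0.58 (SE 0.43, 95% interval -1.60 to 0.44, limma adjusted p = 0.439), and -0.08 without mouse 3.2.

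The 5 inhibitors summed per exon length to 114, 111 and 134 RPKM in mice 1.1, 1.2 and 1.4 and to 98.3, 142 and 99.3 RPKM in mice 3.2, 3.3 and 3.5 (exact permutation p = 0.6). The INK4 genes *Cdkn2c* and *Cdkn2d* held the largest shares in all mice except 3.2, though in mouse 1.4 *Cdkn2c* and *Cdkn1b* stood level at 20.3%. *Cdkn2c* made up 20.3% to 29.6% of inhibitor RNA in *Hoxa9*/MTV mice and 28.7% to 40.3% in *Hoxa9*/*IRX3* mice (difference 8.57 points, exact permutation p = 0.2). *Cdkn2d* made up 32.3%, 35.2% and 41.2% in mice 1.1, 1.2 and 1.4 and 14.2%, 30.2% and 38.8% in mice 3.2, 3.3 and 3.5 (difference -8.52 points, exact permutation p = 0.4). Most of this difference came from mouse 3.2. *Cdkn1b* ran from 20.3% to 26.4% and from 14.9% to 31.4% in the cohorts (exact permutation p = 0.6). *Cdkn1a* ran from 7.70% to 16.5% and from 8.09% to 18.8% (exact permutation p = 0.7), and *Cdkn2a* from 1.78% to 4.52% and from 2.64% to 7.86% (exact permutation p = 0.3). The cohorts overlapped in each of these shares.

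Ordered by the mean level per exon length, *Hoxa9*/MTV cells held *Cdk6*, *Cdk4*, *Cdkn2d*, *Cdkn2c*, *Cdkn1b*, *Ccnd3*, *Cdkn1a*, *Ccnd1*, *Ccnd2* and *Cdkn2a*, from 51.9 to 4.02 RPKM. Of the 9 pairs of neighbours in this order, 2 were further apart than the sum of their SDs, *Cdkn2d* (43.7 ± 9.98) from *Cdkn2c* (30.1 ± 3.39) and *Cdkn1b* (28.0 ± 1.77) from *Ccnd3* (15.9 ± 2.45). In *Hoxa9*/*IRX3* cells the order was *Cdk6*, *Cdk4*, *Cdkn2c*, *Cdkn2d*, *Cdkn1b*, *Ccnd3*, *Cdkn1a*, *Cdkn2a*, *Ccnd2* and *Ccnd1*, from 65.9 to 0.240 RPKM. None of these 9 pairs of neighbours was further apart than the sum of their SDs. *Ccnd1* thus went from place 8 to place 10.

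The rest of the pathway was read from 13 lists with 134 genes, of which 117 were tested. Of these, 2 rose, 1 fell and 114 did not pass, so that 2.56% were called. The genes that rose were *Cdkn1c* and *Ccne2*, and the gene that fell was *Nusap1*. In 10 lists with 88 tested genes none passed limma's adjusted threshold, while 16 had an unadjusted p under 0.05, as had 2315 of all 9522 tested genes (24.3%). Of these lists, limma voom called *Ccng1* and *Fas*, both p53 targets, as higher. *Ccng1* was called in 6 of the 16 alternatives, which were limma voom, median-of-ratios scaling, quantile normalization, exon length, no variance trend and the fit without mouse 3.3. *Fas* was called in 4, which were limma voom, exon length, the study's criterion and the fit without mouse 3.2. *Bbc3*, *Cbx7*, *Ddb2*, *Phlda3*, *Rbx1*, *Tk1* and *Ube2c* were each called in 1 or 2 alternatives.

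*Cdkn1c* (ENSMUSG00000037664; chromosome 7, 143458339 to 143461050, minus strand) encodes p57, the third CIP/KIP inhibitor and an imprinted gene known for keeping hematopoietic stem cells quiescent. It was at 1.00, 0.669 and 1.07 RPKM in mice 1.1, 1.2 and 1.4, from 24, 15 and 28 reads. In mice 3.2, 3.3 and 3.5 it was at 2.59, 6.61 and 11.8 RPKM, from 62, 175 and 254 reads. The cohorts did not overlap, and mouse 3.5 was the highest. The mean was 7.64-fold higher in *Hoxa9*/*IRX3*, and between 5.03-fold (without mouse 3.5) and 10.1-fold (without mouse 3.2) with 1 mouse left out. The change was 2.203 on log2(RPKM + 0.5) (SE 0.47, 95% interval 1.07 to 3.33, limma adjusted p = 0.0498). The call held in 1 of 6 fits with a mouse left out, the fit without mouse 3.2, with adjusted p-values from 0.0102 to 0.184. It was also lost without the filter on low values (adjusted p = 0.0982) and in limma voom (adjusted p = 0.141). Per exon length its cohort means were 1.21 ± 0.286 and 9.27 ± 6.11 RPKM (SD, n = 3 mice each). In the same list, the INK4 gene *Cdkn2b*, which neighbours *Cdkn2a*, had 0 reads in each *Hoxa9*/MTV mouse and 2, 6 and 10 reads in mice 3.2, 3.3 and 3.5, and was too low to be tested.

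*Ccne2* (ENSMUSG00000028212; chromosome 4, 11191351 to 11204779, plus strand) encodes cyclin E2, which activates CDK2 at the entry into S phase. Its RPKM was 1.76, 1.55 and 1.35 in mice 1.1, 1.2 and 1.4 and 2.81, 3.30 and 2.39 in mice 3.2, 3.3 and 3.5. The cohorts did not overlap, and the log2 fold change was 0.70 (SE 0.14, limma adjusted p = 0.0448). The call held in 1 of 6 fits with a mouse left out, the fit without mouse 3.5, with adjusted p-values from 0.0420 to 0.186. It was lost without the filter (adjusted p = 0.0748) and in limma voom (adjusted p = 0.0595) as well. The gene overlaps *Ints8* on the opposite strand over 5622 bases, and *Ints8* was at 0.281 to 0.403 RPKM. *Nusap1*, which encodes a spindle protein, was at 2.42, 2.16 and 2.26 RPKM in mice 1.1, 1.2 and 1.4 and at 1.35, 1.40 and 1.40 RPKM in mice 3.2, 3.3 and 3.5. It fell by 0.56 on the log2 scale (SE 0.096, limma adjusted p = 0.0285). That call held without each of the *Hoxa9*/*IRX3* mice and was lost without each of the *Hoxa9*/MTV mice (adjusted p up to 0.142), and its ratio of means stayed under the 2-fold limit of the study's criterion. *Nusap1* shares 172 bases with *Oip5* on the opposite strand, which was at 0.686 to 2.23 RPKM.

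**Figure D3:**
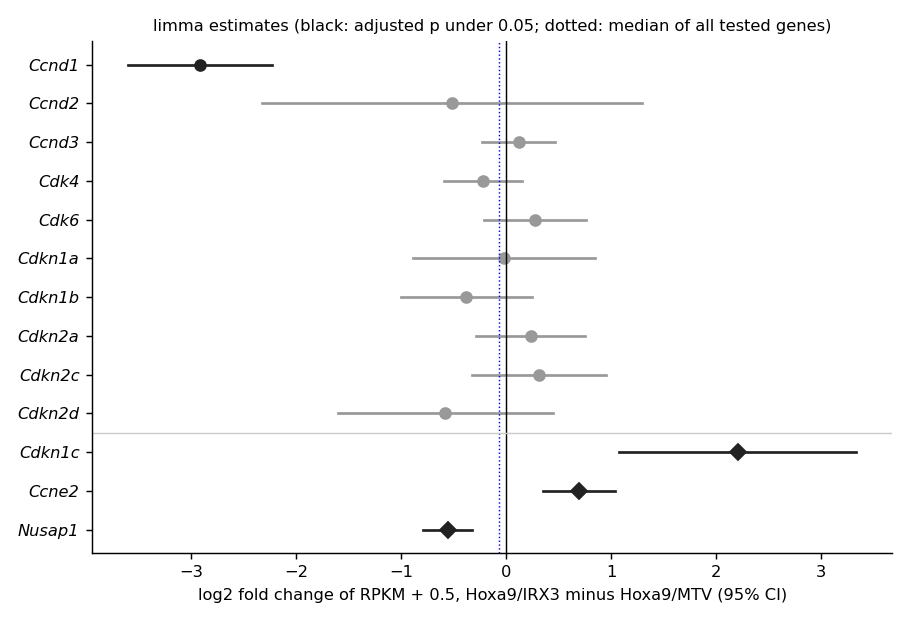
Log2 fold change (*Hoxa9*/*IRX3* relative to *Hoxa9*/MTV, computed from log2(RPKM + 0.5)) with the 95% interval from limma (n = 3 mice each) for the 10 members (circles) and the 3 called genes of the pathway lists (diamonds), in black where the adjusted p was under 0.05, with the median of all tested genes dotted. The interval of *Ccnd1* (-3.59 to -2.23) lies wholly below 0, and those of the other 9 members include 0.

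Around the D cyclin kinases, the list of E and A cyclins with CDK2 had 1 gene called of 5 tested and a median log2 fold change of -0.08, and that of other CDK inhibitors 1 of 2 and 1.26. The RB pocket proteins, which the kinases inactivate, had 0 of 3 called and a median of -0.01. There, *Rbl2* was at -0.15 (limma adjusted p = 0.395) and *Rbl1* at -0.01 (adjusted p = 0.985). Of the E2F and DP factors 0 of 9 were called, with a median of 0.13. The activator *E2f1* had a log2 fold change of -0.58 (SE 0.26, limma adjusted p = 0.229) and *E2f2* of 0.41 (adjusted p = 0.228), and neither passed. Of the list of MuvB and DREAM subunits and factors that act with them, which silence or activate cell cycle genes, 0 of 7 were called. The median was -0.07. *Rbbp4* was at -0.35 (adjusted p = 0.167) and *Foxm1* at -0.25 (adjusted p = 0.302). The CDK-activating kinase had 0 of 2 called, with *Ccnh* at -0.24 (adjusted p = 0.214) and *Cdk7* at 0.04 (adjusted p = 0.815).

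Among factors for the turnover of p27 and the D cyclins 0 of 8 were called, with a median of 0.12. The nearest to the threshold was *Rbx1*, the RING subunit of cullin ligases, at 4.72, 4.68 and 6.59 RPKM in mice 1.1, 1.2 and 1.4 and 3.04, 3.22 and 2.70 RPKM in mice 3.2, 3.3 and 3.5. Its cohorts did not overlap, with a log2 fold change of -0.73 (SE 0.16, limma adjusted p = 0.0521). *Fbxo31*, an F-box protein that targets cyclin D1, was at 0.35 (adjusted p = 0.169). Of the 11 genes of this list 3 were not tested, as they stayed under the filter on RPKM, whose length includes introns. *Ambra1* had 724, 679 and 734 reads in mice 1.1, 1.2 and 1.4 and 673, 456 and 316 reads in mice 3.2, 3.3 and 3.5. *Fbxw7* had 234 to 364 reads over the 6 mice, and *Cryab* at most 3. Repressors of the Ink4a-Arf locus had 0 of 8 called and a median of -0.11. *Cbx7* was at -0.44 (adjusted p = 0.154) and *Eed* at -0.34 (adjusted p = 0.132), both Polycomb proteins. The ARF, MDM2 and p53 list had 0 of 5 called and a median of -0.07, with *Mdm4* at -0.30 (adjusted p = 0.288) and *Usp7* at -0.07 (adjusted p = 0.695). The FOXO factors, which can induce *Cdkn1b*, had 0 of 2 called and a median of -0.14, with *Foxo3* at -0.32 (adjusted p = 0.112) and *Foxo4* at 0.04 (adjusted p = 0.867).

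Of the p53 targets other than *Cdkn1a* 0 of 19 were called, with a median of -0.07 and 6 at an unadjusted p under 0.05, next to those 24.3% of all tested genes. *Pmaip1*, which encodes the apoptosis inducer NOXA, was at 12.5, 34.1 and 26.2 RPKM in mice 1.1, 1.2 and 1.4 and at 17.3, 4.40 and 7.40 RPKM in mice 3.2, 3.3 and 3.5. Mice 3.3 and 3.5 were the lowest, and mouse 3.2 lay above mouse 1.1, so that the cohorts overlapped (log2 fold change -1.37, SE 0.55, limma adjusted p = 0.188). *Btg2*, an antiproliferative gene, was at -1.17 (adjusted p = 0.192). The smallest adjusted p of the list was 0.0588, for *Ccng1*, which encodes cyclin G1. It was at 29.4, 27.3 and 25.5 RPKM in mice 1.1, 1.2 and 1.4 and at 54.5, 39.0 and 44.8 RPKM in mice 3.2, 3.3 and 3.5, a log2 fold change of 0.73. *Ccng1* was named after its values were seen.

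Genes of replication and S phase, which E2F factors control, had 0 of 25 called and a median of 0.04. *Tk1*, thymidine kinase, had a log2 fold change of -0.81 (SE 0.24, limma adjusted p = 0.107) and *Mcm4*, a subunit of the replicative helicase, of 0.35 (adjusted p = 0.186). The summed level of the list was 229, 227 and 215 RPKM in mice 1.1, 1.2 and 1.4 and 209, 260 and 221 RPKM in mice 3.2, 3.3 and 3.5. Of 22 mitosis genes 1 fell, with a median of -0.10. Their sum was 171, 156 and 168 RPKM in mice 1.1, 1.2 and 1.4 and 130, 201 and 149 RPKM in mice 3.2, 3.3 and 3.5. The proliferation marker *Mki67*, which had the highest deposited RPKM of them, was at 41.4 to 49.8 RPKM in 5 mice and at 76.1 RPKM in mouse 3.3. Without *Mki67* the sum of the mitosis genes was 121, 113 and 127 RPKM in mice 1.1, 1.2 and 1.4 and 86.9, 124 and 104 RPKM in mice 3.2, 3.3 and 3.5. Mouse 3.3 thus had the highest sum of replication genes and the highest *Mki67*, *Cdk6* and *Cdkn2c*, and the lowest *Ccnd1* and *Ccnd2*. Mouse 3.2 had the lowest sums of replication and mitosis genes and the lowest *Cdk4* and *Cdkn2d*, and *Ccna2*, the S phase cyclin A2, named after its values were seen, was at 11.3 RPKM there and at 28.1 to 34.1 RPKM in the other 5 mice. The part of these differences between mice in the values above was not tested.

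**Figure D4:**
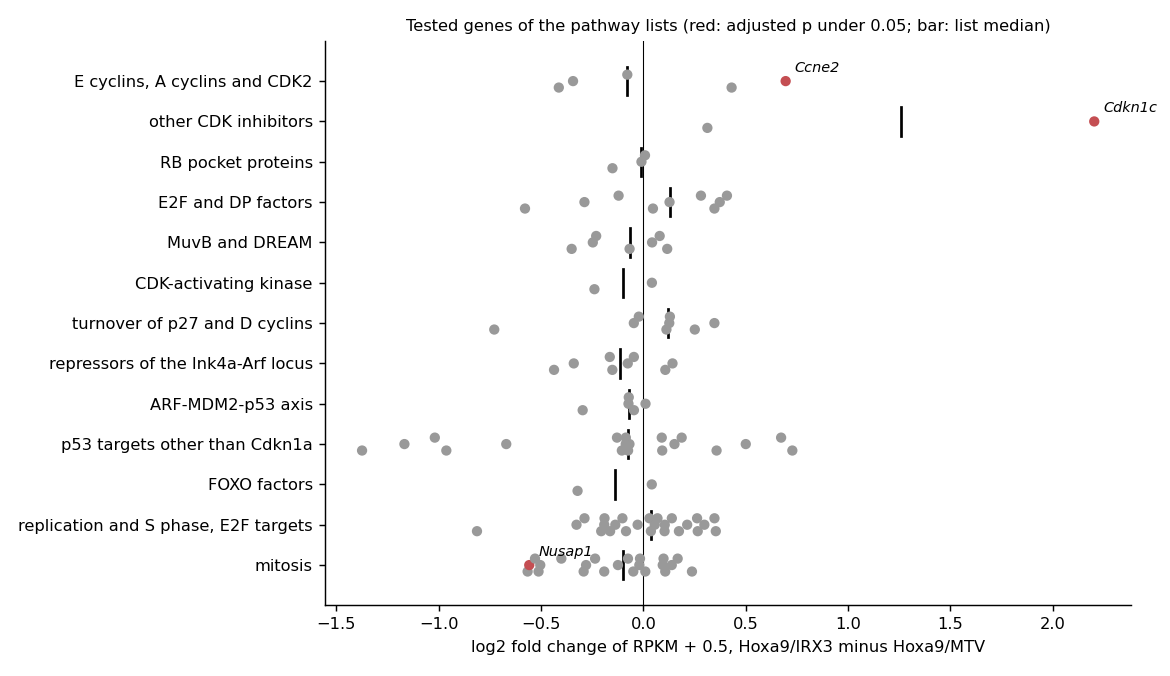
Log2 fold change of every tested gene (points, red where the adjusted p was under 0.05) in each of the 13 pathway lists, with the median of the list as a bar, on log2(RPKM + 0.5). The medians lie between -0.14 and 0.13 in 12 lists, against -0.06 for all tested genes, and that of the other CDK inhibitors (1.26) rests on 2 genes.

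The 2538 tested genes whose mean was 5 RPKM or more were ranked by the Euclidean distance of their profile over the 6 mice, each less its own mean on log2(RPKM + 0.5), to those of the 3 members with the smallest p. Nearest to *Ccnd1* was *Irf5* (distance 0.896), which encodes an interferon regulatory factor of monocytes and macrophages. It was at 10.9, 10.7 and 11.2 RPKM in mice 1.1, 1.2 and 1.4 and at 1.24, 0.923 and 0.863 RPKM in mice 3.2, 3.3 and 3.5. *Bex6* (distance 1.41) ranged from 48.5 to 76.5 RPKM in *Hoxa9*/MTV mice and from 4.67 to 15.9 RPKM in the other cohort. *Cd68* (distance 1.41), a lysosomal protein of macrophages, was at 67.9 to 87.3 and 6.71 to 18.3 RPKM. Because they were picked for their likeness to *Ccnd1*, the direction of their difference between cohorts was fixed by the choice. Nearest to *Cdkn1b* were *Zfp598* (distance 0.189), *Wsb1* (0.194) and *Tbc1d20* (0.197). Nearest to *Cdk4* were *Nrbp1* (distance 0.143), *Actr1a* (0.150) and the replicative helicase subunit *Mcm7* (0.156).

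**Figure D5:**
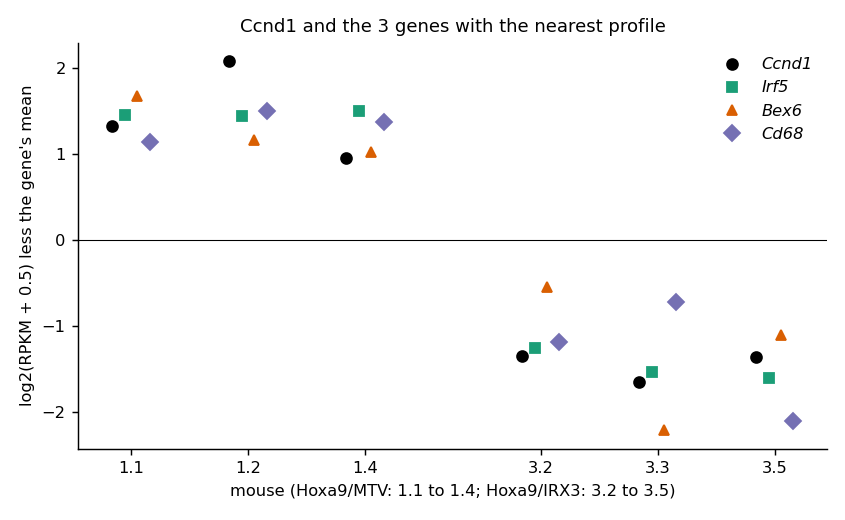
Values of *Ccnd1* and of the 3 genes nearest to it in profile (*Irf5*, *Bex6* and *Cd68*) in each of the 6 mice, as log2(RPKM + 0.5) less the gene's own mean. Each of the 4 genes is above its mean in the 3 *Hoxa9*/MTV mice and below it in the 3 *Hoxa9*/*IRX3* mice.

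Markers of other cells were read beside these results. Of the monocyte and macrophage list 3 of 7 tested genes fell (*Ccr2*, *Cd68* and *Ms4a6c*), with a median of -1.50. Its summed level was 148, 157 and 179 RPKM in mice 1.1, 1.2 and 1.4 and 77.0, 42.9 and 30.1 RPKM in mice 3.2, 3.3 and 3.5, and *Cd68* had the highest deposited RPKM when the 6 mice were added up. Per exon length *F13a1* was the highest in each mouse. With a mouse left out, the call of *Ms4a6c* held in 6 of 6 fits, that of *Ccr2* in 4 and that of *Cd68* in 3. No gene of that list was at 0 in all mice. The sum was thus lower in each *Hoxa9*/*IRX3* mouse than in any *Hoxa9*/MTV mouse. *Ms4a6c* was at 28.4, 22.6 and 32.2 RPKM in mice 1.1, 1.2 and 1.4 and at 0.941, 0.199 and 1.26 RPKM in mice 3.2, 3.3 and 3.5, and *Ccr2* at 22.3, 18.7 and 26.3 RPKM and at 4.99, 3.69 and 6.48 RPKM. Not each gene of the list was lower in each mouse. *Csf1r* was highest in mouse 3.3 (6.43 RPKM, against 4.77 to 5.94 RPKM in *Hoxa9*/MTV mice) but at 0.790 and 0.552 RPKM in mice 3.2 and 3.5. *Cd14* was highest in mouse 3.2 (50.8 RPKM, against 8.47 to 17.2 RPKM) but at 2.45 and 10.7 RPKM in mice 3.3 and 3.5. In the list for mast cells and basophils 2 of 4 fell (*Cpa3* and *Gata2*), and its sum was 14.5, 17.4 and 20.3 RPKM in mice 1.1, 1.2 and 1.4 and 4.51, 7.31 and 6.51 RPKM in mice 3.2, 3.3 and 3.5. *Ms4a2* of the same list was at 0.279 to 0.542 RPKM in *Hoxa9*/MTV and at 0.610 to 1.09 RPKM in the other mice, without overlap (log2 fold change 0.66, limma adjusted p = 0.103). The calls of *Gata2* and *Cpa3* held in 3 and 1 of 6 such fits, and *Cpa3* exceeded the filter in mice 1.1 and 1.4 alone. The highest deposited RPKM was that of *Mcpt8*, at 8.75 to 13.7 RPKM in *Hoxa9*/MTV mice and 3.18 to 6.69 RPKM in the other cohort. Its cohorts did not overlap (log2 fold change -1.21, limma adjusted p = 0.0621). *Fcer1a* was at 0 in every mouse. Their part in the fall of *Ccnd1* was not tested.

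Among markers of the sorted leukemia cells *Ly6g* and *Elane* rose and *Cd34* fell, of 8 tested. *Ly6g* had 5, 4 and 2 reads in mice 1.1, 1.2 and 1.4 and 49, 26 and 35 reads in mice 3.2, 3.3 and 3.5. It exceeded the filter in the *Hoxa9*/*IRX3* mice alone. *Elane*, neutrophil elastase, had the highest deposited RPKM, while per exon length *Mpo*, myeloperoxidase, was above it in the *Hoxa9*/MTV mice (1526 to 2378 against 1189 to 2040 RPKM). The sum of deposited RPKM was 1780, 2307 and 1562 RPKM in mice 1.1, 1.2 and 1.4 and 4883, 4933 and 4154 RPKM in mice 3.2, 3.3 and 3.5. Of 10 neutrophil genes 1 rose (*Retnlg*), with *Ngp* the highest and sums of 1511, 2226 and 1521 RPKM against 2068, 1179 and 3398 RPKM in the same order. Dendritic cell and MHC class II genes had 1 of 4 lower (*Flt3*), with *H2-Ab1* the highest and sums of 4.61, 3.98 and 6.10 RPKM against 1.53, 0.172 and 5.99 RPKM. *Flt3* exceeded the filter in the *Hoxa9*/MTV mice alone. B cell genes had 1 of 2 lower (*Cd79b*), with sums of 6.35, 7.15 and 7.30 RPKM against 0.819, 0.652 and 5.03 RPKM. The other tested gene, *Vpreb1*, was at 0.0493 to 0.169 RPKM without *IRX3*, from 2, 1 and 4 reads in mice 1.1, 1.2 and 1.4. It was at 0.231, 0.376 and 2.72 RPKM in mice 3.2, 3.3 and 3.5, from 5, 9 and 53 reads. Only mouse 3.5 exceeded the filter, and the cohorts were apart by no more than 4 reads against 5. The log2 fold change was 1.08 (limma adjusted p = 0.272). *Ms4a1* and *Pax5* were at 0 in all mice. Among T and NK cell genes *Nkg7* was the highest, at 14.9 to 482 RPKM, and *Cd3d* and *Ncr1* were at 0 in all mice. The megakaryocyte list summed to 1.61 to 12.8 RPKM, led by *Gp1bb*, with *Ppbp* at 0. Erythroid and stromal genes summed to at most 0.303 and 0.464 RPKM, with *Klf1* and *Cxcl12* the highest when the 6 mice were added up, and *Hba-a1*, *Hba-a2*, *Hbb-bt* and *Alas2* were at 0 in all mice. The 3 tested genes of the T and NK cell and megakaryocyte lists had limma adjusted p-values of at least 0.415. Calls of these lists held in 4 of 6 fits with a mouse left out for *Elane* and *Flt3*, in 3 for *Ly6g*, *Cd34* and *Retnlg* and in 1 for *Cd79b*. Of the erythroid and stromal genes none was high enough to be tested. Apart from the highest of each list and the markers of the sort, the marker genes above were named after their values were seen.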

How the data were processed

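The authors aligned reads of 6 polyA libraries, 1 per mouse, to GRCm38 with Bowtie2 2.2.1, filtered the alignments with SAMtools 0.1.19 and deposited RPKM for each gene. Cohorts were taken from the sample labels. Depth was 7979246 to 9803621 reads per library, recovered from the steps between low values. The lowest lies below the range of filtered reads that the study states, and the difference was not explained. Reads so computed were whole (within 0.01) for 65.0% of tested genes on the gene span and for 32.8% on another length, and approximate for 2.3%. A count of 0 was taken to allow 3 reads, and such floors and intervals cover counting error only.

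GENCODE M21 gave gene types, positions and exon lengths. The filter kept protein-coding genes that exceeded 0.5 RPKM in 1 mouse or more, after the study's threshold. The study states a smaller number of genes past that threshold, and the difference was not explained. Linear models of log2(RPKM + 0.5) by cohort were fitted with limma 3.58.1 under R 4.3.3, using lmFit and then eBayes with its trend option, a step that was tested on simulated data. A gene was called at a Benjamini-Hochberg adjusted p under 0.05 over all 9522 tested genes, with no limit on the fold change. Shares and sums within a family were compared by exact two-sided permutation over mice, which cannot reach p = 0.05 with 3 mice against 3. Python 3.11.15, numpy 2.4.6, pandas 2.3.3, scipy 1.17.1 and matplotlib 3.10.9 were used for the rest.

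Named genes were all 10 members, the called genes of each pathway list or, with none called, its 2 largest changes, the 3 genes nearest in profile, among those averaging 5 RPKM or more, to each of the 3 members with the smallest p, the introduced genes, and the gene of each marker list with the highest deposited RPKM. Overlapping genes and the markers of the sort were named besides, and any other gene was named after its values were seen. The result for 1 further marker gene is not reported here. The members and lists were chosen with earlier results of these data known. Alternatives were pseudocounts of 0.1 and 1, a filter of 1 RPKM or none, quantile normalization, scaling by median of ratios, exon length, eBayes without its trend, limma voom on the recovered reads, the study's criterion (means differing by more than 2-fold at an unadjusted p under 0.05), the gene span for shares, and leaving out each mouse in turn.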

Additional observations from a re-analysis of the deposited data

How the results depend on the processing

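*Ccnd1* was the member called lower, and 0 members were called higher, under each of the 16 alternatives. Its log2 fold changes ran from -5.41 (limma voom) to -2.20 (pseudocount of 1). Adjusted p-values of the limma fits ran from 0.00490 to 0.0416, and the unadjusted p by the study's criterion (unpaired t-test) was 0.02145. Without the filter 448 of 14755 genes were called, with exon length 571 and by the study's criterion 664. The study itself reports fewer genes past its criterion. Leaving out a mouse gave 61 to 758 calls, with 74, 66 and 61 without mice 1.1, 1.2 and 1.4. Genes called higher were 175 of 510, but 234 of 508 after quantile normalization. In the pathway lists, genes called higher went from 2 to 1 with a pseudocount of 1, without the variance trend and by the study's criterion, to 0 without the filter, to 3 after quantile normalization, to 4 with exon length, and to 0 to 2 with a mouse left out. The 1 gene was *Ccne2* with a pseudocount of 1, *Ccng1* without the variance trend and *Fas* by the study's criterion. A count of 2 held at least 1 other gene with median-of-ratios scaling (*Ccne2* and *Ccng1*), with limma voom (*Ccng1* and *Fas*), without mouse 3.2 (*Cdkn1c* and *Fas*) and without mouse 3.3 (*Ccng1* and *Phlda3*). Genes called lower went from 1 to 2 with the filter of 1 RPKM and by the study's criterion, and to 0 to 3 with a mouse left out. That filter gave *Nusap1* and *Rbx1*, whereas the study's criterion gave *Bbc3* and *Cbx7* and not *Nusap1*. Estimates far from any call changed sign. *Ccnd2* was at 0.0093 by the study's criterion, at -3.38 by limma voom without a change of sign, and at -1.30 to 0.34 with a mouse left out. *Cdkn1a* was at 0.063 (median-of-ratios), 0.093 (quantile) and -0.26 to 0.34 with a mouse left out, and *Rbl1* at 0.054, 0.077, 0.047 (study's criterion) and -0.23 to 0.23. *Usp7* was at 0.016 (quantile). With a mouse left out, *Foxo4* ranged from -0.036 to 0.10, *Ngp* from -0.42 to 0.31, *H2-Ab1* from -1.47 to 0.12 and *Gp1bb* from -0.31 to 0.99. With a mouse left out, the difference in share ranged from -8.84 to 9.51 points for *Ccnd2* and from -2.41 to 3.49 points for *Cdkn1a*. On the gene span it was 11.8 points for *Ccnd2*, 0.939 for *Cdkn1a* and -51.8 for *Ccnd1*. The cause was not tested.

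*Cdkn1c* lost its call in 11 alternatives (limma adjusted p up to 0.184), *Ccne2* in 9 (up to 0.186) and *Nusap1* in 4 (up to 0.142). The filter of 1 RPKM left out *Cdkn2a*, which then had no value. No paired analysis was possible because the labels give the cohorts different mouse numbers. With 3 mice in each cohort, exact tests cannot go below p = 0.1. The 0 reads of *Ccnd2* in mouse 3.3 fix only an upper limit, and the 3 reads of *Ccnd1* there a wide interval. RNA levels do not give protein levels or kinase activity, which were not measured.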
